A study of Mus musculus with 24 samples.

Results

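The wild-type (WT) cortex of adult mice was compared between 9 and 3 months of age by counting its microRNAs (miRNAs). The members are the 6 WT libraries of these ages, 3 mice at 9 months and 3 at 3 months, out of the 24 libraries of the series, and every miRNA name with enough counts was tested. All mice of the series were C57BL/6, and WT and APP/PS1 mice were taken at 1, 3, 6 and 9 months. Each group had 2 females and 1 male per the labels, which do not say which library is which, so that sex was not modelled. The APP/PS1 mice of 9 and 3 months, 6 libraries, serve below as other mice of the same ages. They are a transgenic model of Alzheimer disease that carries mutant amyloid precursor protein and presenilin transgenes, and the promoter of these is not stated in the labels. The cerebral cortex is named in the title of the series, and the tissue field says brain.

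miRNAs are short RNAs that guide the silencing machinery to transcripts, mainly through their seed, the bases 2 to 8 from the 5′ end. A precursor hairpin yields a 5p and a 3p arm, of which one usually accumulates. In the cortex, miR-124 and miR-9 mark neurons, miR-132 and miR-212 are transcribed when neurons are active, miR-219 and miR-338 act in oligodendrocyte maturation, and the large imprinted Dlk1-Dio3 locus yields many brain miRNAs.

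The 6 libraries held between 3644883 and 6604335 counts. The neuronal miR-124-3p took between 16.6% and 19.9% of them and ranked first, before miR-26a-5p, miR-99a-5p, the neuronal miR-9-5p and miR-125b-5p. Among 1927 listed names 433 were tested, 1008 had 0 counts in all 6 libraries, and 486 had counts there but too few to test. Together, the untested names made up 0.011% to 0.0138% of each WT library. Log-scale levels of each library correlated with those of the other mice of its group at between 0.992 and 0.994 on average. By the chi-square of its counts against the nearest library of its group, divided by the degrees of freedom, WT 9-month replicate 3 stood furthest from its group, at 116, against 37.3 for the other 9-month libraries and 63.2 to 78 for those of 3 months. This measure grows with depth, and that library had the most counts of the 6. By correlation it did not stand apart, at 0.9934, between the 0.9931 and 0.9939 of the other 9-month libraries. Without WT 9-month replicate 3, 0 miRNAs passed in WT, as with it.

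No miRNA passed between 9 and 3 months in WT cortex at an adjusted p of 0.05 in edgeR's quasi-likelihood test (0 of 433, or 0%). At an unadjusted p under 0.05 there were 41 names (9.47% of those tested), 22 higher (5.08%) and 19 lower (4.39%) at 9 months, which hold 38 distinct sets of counts. The split moved with the scaling, to 16 higher and 21 lower with DESeq2's size factors and to 12 and 17 with total counts. DESeq2 passed 3, miR-101b-3p, miR-412-5p and miR-212-3p, and these are also among the 5 smallest p in edgeR. The median log2 fold change over all tested was 0.02, the median size of a change was 0.17, and 4 names had a log2 change larger than 1 in size. For 70 miRNAs of 1000 CPM (counts scaled to library size) or more the median standard error was 0.12, and the largest change among them was 0.57. For 256 miRNAs under 100 CPM the median standard error was 0.30.

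**Figure D1:**
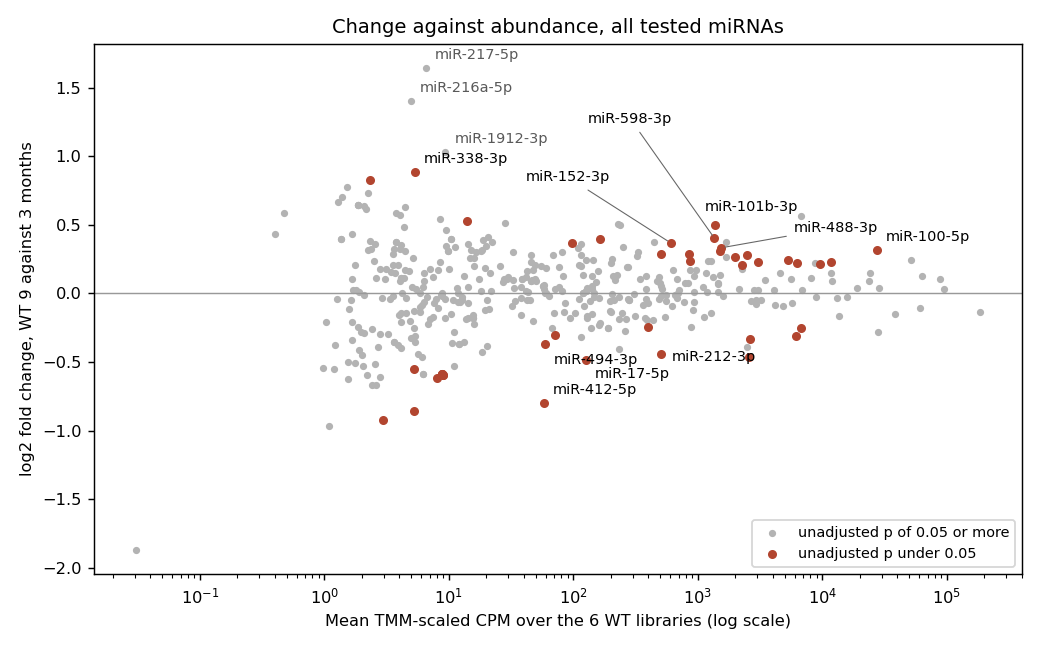
Log2 fold change in WT cortex, 9 against 3 months, of all 433 tested miRNAs (vertical axis) against their mean TMM-scaled CPM over the 6 WT libraries (horizontal axis, log scale). Red points are the 41 at an unadjusted p under 0.05, of which none passed after adjustment, and changes larger than 1 in size occur only under 100 CPM.

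The 10 miRNAs with the smallest p were 6 higher and 4 lower at 9 months. Their mature sequences are printed to show which of them share a seed, here in capitals, with RefSeq entries of build GRCm38.p6 as the source. miR-598-3p is named only. miR-132-3p is added because it has the same seed as miR-212-3p, and miR-101a-3p because it holds the seed letters of miR-101b-3p 1 base earlier.
miR-101b-3p: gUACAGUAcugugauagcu
miR-101a-3p: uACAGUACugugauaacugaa
miR-412-5p: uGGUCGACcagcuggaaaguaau
miR-100-5p: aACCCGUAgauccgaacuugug
miR-212-3p: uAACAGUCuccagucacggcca
miR-132-3p: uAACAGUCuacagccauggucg
miR-488-3p: uUGAAAGGcuguuucuugguc
miR-17-5p: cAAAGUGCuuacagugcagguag
miR-152-3p: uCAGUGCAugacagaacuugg
miR-338-3p: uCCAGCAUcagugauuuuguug
miR-494-3p: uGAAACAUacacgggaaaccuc
Among these 10, no 2 of those with a sequence shared a seed. All 10 had WT libraries of 9 and 3 months that did not overlap, which was so of 60 of all tested (13.9%; 30 in each direction, 6.93%). Members were taken by p, so this count describes them and supports nothing.

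**Figure D2:**
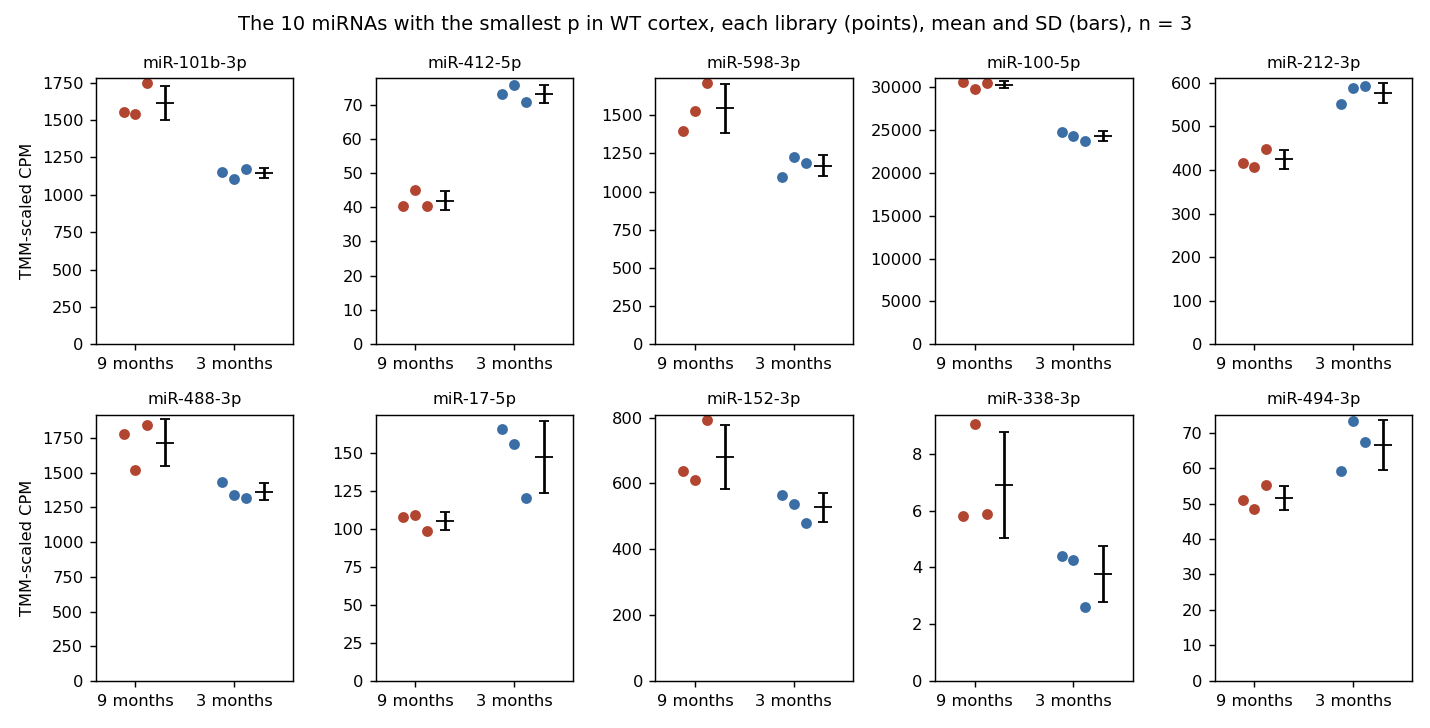
TMM-scaled CPM (vertical axes, from 0) of the 10 miRNAs with the smallest p, in WT cortex at 9 months (red, left) and 3 months (blue, right). Points are libraries and black bars are the mean and SD of 3 mice, and in each panel the points of the 2 ages do not overlap.

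The first group is the activity-regulated pair miR-132 and miR-212, made from neighbouring precursors on chromosome 11 of GRCm38 (Mir212 at 75173388 to 75173478, Mir132 at 75173682 to 75173747, both intronic in the noncoding transcript 1700016P03Rik). Their transcription follows the factor CREB in active neurons. miR-212-3p stood at 417, 407 and 449 CPM at 9 months, against 551, 588 and 593 CPM at 3 months. Its log2 fold change was -0.44 (SE 0.13, 95% interval -0.71 to -0.18, adjusted p = 0.188). The other arm, miR-212-5p, stood at 2310, 2297 and 2347 CPM at 9 months, against 2712, 3058 and 2984 CPM at 3 months (log2 fold change -0.33, SE 0.15, adjusted p = 0.509). Every library of 9 months lay below every library of 3 months for both arms. miR-132-3p, with the seed of miR-212-3p, stood at 2092, 2076 and 2237 CPM at 9 months, against 2444, 3385 and 2555 CPM at 3 months (-0.39, SE 0.19, adjusted p = 0.514). miR-132-5p averaged 2146 ± 126 CPM at 9 months and 2959 ± 613 CPM at 3 months (SD, n = 3 each; -0.46, SE 0.17, adjusted p = 0.38). All 4 arms of the pair were lower at 9 months by their values, without overlap, which held for 6.93% of all tested in this direction, and 0 of 4 passed. The arms come from neighbouring precursors. miR-212-3p was taken by its p and the miR-132 arms after their values were seen, so this count describes them and supports nothing. In bulk tissue, fewer cells of a type and less RNA per cell cannot be told apart.

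The list of activity-regulated miRNAs holds these 4 and the arms of miR-134, a dendritic miRNA from Dlk1-Dio3. Of its 6 members 3 lay lower and 1 higher at an unadjusted p under 0.05, against 9.47% of all tested, and its median log2 fold change was -0.39. Because the same 4 arms are among the 6, this share is a description too. Summed over the list, CPM lay between 6571 and 7481 at 9 months and between 8393 and 10236 at 3 months. miR-134-5p went the other way by its value (log2 fold change 0.36, SE 0.17, adjusted p = 0.509), while its other arm, miR-134-3p, was lower (-0.38, SE 0.21, adjusted p = 0.675).

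A second group is made from introns of brain genes. miR-488 lies in Astn1, the gene of a neuronal adhesion protein that serves migration along glia (chromosome 1, 158505625 to 158505733). miR-488-3p stood at 1779, 1522 and 1845 CPM at 9 months, against 1433, 1339 and 1317 CPM at 3 months (log2 fold change 0.33, SE 0.10, adjusted p = 0.188). Its other arm, miR-488-5p, stood at 18.4, 15.1 and 15.95 CPM at 9 months, against 12.4, 8.85 and 13.1 CPM at 3 months (0.53, SE 0.19, adjusted p = 0.359; 0.32 without WT 3-month replicate 2). Both arms were thus higher at 9 months in each library, though neither passed. miR-598-3p, from within Xkr6 (chromosome 14, 63727189 to 63727267), stood at 1393, 1531 and 1710 CPM at 9 months, against 1093, 1229 and 1186 CPM at 3 months. Its log2 fold change was 0.40 (SE 0.11, adjusted p = 0.188).

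Another group holds miRNAs of broad expression. miR-101b-3p, of the miR-101 family that represses the Polycomb methyltransferase Ezh2, comes from an intron of Rcl1 (chromosome 19, 29135279 to 29135375). It stood at 1556, 1543 and 1747 CPM at 9 months, against 1151, 1109 and 1176 CPM at 3 months, and had the smallest p of all tested. Its log2 fold change was 0.50 (SE 0.11, 95% interval 0.28 to 0.72, adjusted p = 0.0533). The call depended on the settings, as it passed with DESeq2 (adjusted p = 0.00534), with a filter of 10 CPM in 3 libraries (0.0384) and without the 6-month libraries (0.00388). The near copies miR-101a-3p (0.32, SE 0.24) and miR-101c (0.31, SE 0.24) averaged 20.2 ± 1.05 and 20.1 ± 1.05 CPM at 9 months, against 16.4 ± 6.43 CPM each at 3 months (SD, n = 3 each). Their sequences share runs of 15 and 14 bases with miR-101b-3p, and how the authors assigned reads that match several names is not stated in the labels, so the split among the 3 names is uncertain. In APP/PS1 mice miR-101a-3p and miR-101c rose by 1.00 each at 9 against 3 months (SE 0.24, adjusted p = 0.0125 for both).

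miR-100-5p, of the miR-99 and miR-100 family that restrains the growth kinase mTOR, comes from an intron of 3110039I08Rik (chromosome 9, 41531425 to 41531504) and was the most abundant of the 10. It stood at 30552, 29834 and 30435 CPM at 9 months, against 24803, 24333 and 23661 CPM at 3 months (log2 fold change 0.32, SE 0.09, adjusted p = 0.188). Its seed mates miR-99a-5p (0.10, SE 0.11, adjusted p = 0.871) and miR-99b-5p (0.09, SE 0.10, adjusted p = 0.871) had smaller values. miR-152-3p, which targets the DNA methyltransferase Dnmt1 and lies in an intron of Copz2 (chromosome 11, 96850393 to 96850465), stood at 638, 610 and 792 CPM at 9 months, against 564, 538 and 480 CPM at 3 months. Its log2 fold change was 0.37 (SE 0.11, adjusted p = 0.188), against 0.10 for both of its seed mates, miR-148a-3p (SE 0.16) and miR-148b-3p (SE 0.08), and it was 0.21 without WT 9-month replicate 3. miR-29b-3p, whose family accumulates in maturing neurons and represses pro-apoptotic genes there, stood at 2280, 2237 and 2028 CPM at 9 months, against 1708, 1856 and 1888 CPM at 3 months (0.26, SE 0.10, adjusted p = 0.38). Of the 5 tested arms of the miR-29 family it was the one at an unadjusted p under 0.05, and 4 of the 5 had values above 0.

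miR-338-3p stood alone for the oligodendrocyte list. It lies in an intron of Aatk on chromosome 11 (120014765 to 120014862) and promotes oligodendrocyte differentiation. Its level was low, with 5.80, 9.04 and 5.87 CPM at 9 months, against 4.42, 4.24 and 2.62 CPM at 3 months. The log2 fold change was 0.88 (SE 0.28, 95% interval 0.30 to 1.47, adjusted p = 0.24). The other 8 names of the list could not be tested. Among them the other arm, miR-338-5p, had 0 to 6 counts per library at 9 months and 3 to 7 at 3 months, so it showed no rise. Of the defining marker miR-219a, the 5p arm had at most 2 counts in a 9-month library and 0 at 3 months, and the arm miR-219a-2-3p at most 1 and at most 3. The list summed to between 6.44 and 10.6 CPM at 9 months and between 4.84 and 5.94 CPM at 3 months.

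The Dlk1-Dio3 locus on chromosome 12 held the lowest log2 fold change of the 10, and its members had no common direction. miR-412-5p, from an exon of the maternally expressed transcript Mirg (109743289 to 109743368), stood at 40.3, 45.0 and 40.5 CPM at 9 months, against 73.1, 75.8 and 70.6 CPM at 3 months. Its log2 fold change was -0.80 (SE 0.19, 95% interval -1.20 to -0.41, adjusted p = 0.0865). It passed with DESeq2 (adjusted p = 0.00534), without a filter (0.00535), with a filter of 10 CPM in 3 libraries (0.0384), in the 6 WT libraries alone (0.0283) and without the 6-month libraries (0.00359). The other arm, miR-412-3p, averaged 12.4 ± 1.40 CPM at 9 months and 12.9 ± 0.950 CPM at 3 months (SD, n = 3 each), and its log2 value was -0.05 (SE 0.20). miR-494-3p (109715318 to 109715402) stood at 51.1, 48.5 and 55.2 CPM at 9 months, against 59.1, 73.2 and 67.3 CPM at 3 months (-0.37, SE 0.12, adjusted p = 0.3). Of the 91 tested names of the locus 7 were higher and 4 lower at an unadjusted p under 0.05, or 12.1%, near the 9.47% of all tested. Their median log2 fold change was 0.01, with 50 values above 0 and 41 below. The 7 higher were both arms of miR-127 and of miR-434, miR-134-5p, miR-300-3p and miR-382-3p, at log2 fold changes between 0.20 and 0.36, and the other lower ones were miR-409-5p and miR-337-5p at -0.25 each.

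miR-17-5p comes from the polycistron Mir17hg on chromosome 14 (115043671 to 115043754), whose miRNAs promote cell proliferation. It stood at 108, 109 and 98.6 CPM at 9 months, against 166, 156 and 121 CPM at 3 months (log2 fold change -0.49, SE 0.15, adjusted p = 0.188). Its cluster mate miR-18a-5p had 1.58, 2.58 and 1.81 CPM at 9 months, against 4.69, 3.87 and 3.05 CPM at 3 months (-0.93, SE 0.31, adjusted p = 0.3). Over the 8 tested names of miR-17-92 and its paralogues the median was -0.25, 7 of 8 values were below 0 (193 of 433 over all tested), and these 2 lay lower at an unadjusted p under 0.05 (25%, against 4.39% of all tested in this direction). miR-20a-5p, with the seed of miR-17-5p, had a value of -0.07 (SE 0.13, adjusted p = 0.944). The most abundant of the 8, miR-92a-3p at 275 CPM, went the other way (0.19, SE 0.14, adjusted p = 0.767). The paralogues miR-106a, miR-106b, miR-25 and miR-93 could not be tested. In APP/PS1 the median of the 8 was -0.04, with 3 values above 0.

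**Figure D3:**
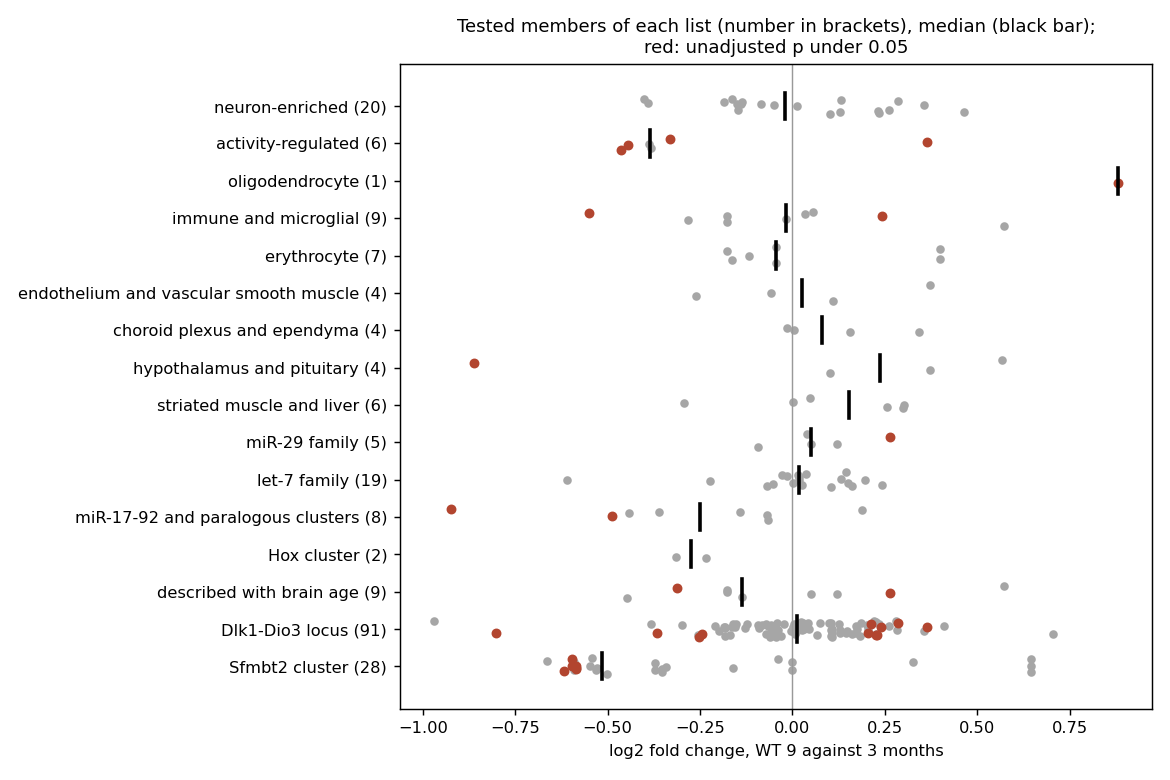
Log2 fold change in WT cortex, 9 against 3 months (horizontal axis), of the tested members of each list (rows, number of members in brackets). Red points lie at an unadjusted p under 0.05 and black bars are medians. The medians of the activity-regulated list (-0.39) and of the Sfmbt2 list (-0.52) lie furthest below 0.

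The rodent-specific families miR-297, miR-466, miR-467 and miR-669 come in many cases from an intron of the imprinted gene Sfmbt2. Of their 28 tested names, some with identical counts, 24 had values below 0 (193 of 433 over all tested). Their median was -0.52, against 0.02 over all tested. The 28 names hold 19 distinct sets of counts, of which 3 were lower at an unadjusted p under 0.05 (15.8%, against 9.13% of the 416 distinct sets of all tested). By name these 3 sets count as 6 of 28. The set of miR-466a-3p and miR-466e-3p was nearly the same as that of miR-466b-3p, miR-466c-3p and miR-466p-3p. Their means over the 6 WT libraries were 8.91 and 8.87 CPM, and their log2 fold changes -0.60 and -0.58. The 3 sets are thus not separate signals. Libraries did not overlap for 3 of 28 names, all lower, near the 6.93% of all tested, and 0 passed. The smallest p belonged to miR-467e-5p, at 7.91, 7.19 and 3.91 CPM at 9 months, against 11.3, 9.22 and 8.28 CPM at 3 months (log2 fold change -0.62, SE 0.28, adjusted p = 0.509; -0.38 without WT 9-month replicate 3). Summed over the list the ages overlapped, with 333 to 366 CPM at 9 months and 295 to 480 CPM at 3 months, and the most abundant pair, miR-467a-5p and miR-467b-5p with identical counts, was at 0.00.

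The neuron-enriched list had 10 of 20 tested names above 0 and 10 below (median -0.02), with 0 at an unadjusted p under 0.05 and the smallest p for miR-383-5p (0.46, SE 0.24, adjusted p = 0.672). It summed to between 286980 and 298510 CPM at 9 months and between 303280 and 327360 CPM at 3 months. That sum is mostly miR-124-3p, at 176265 ± 9944 CPM at 9 months and 193966 ± 13963 CPM at 3 months (SD, n = 3 each). Its log2 fold change was -0.14 (SE 0.10, adjusted p = 0.767), and its libraries overlapped. The part of these neuronal levels in the other results was not tested.

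The immune and microglial list, with the haematopoietic miR-142a and the inflammatory miR-146a and miR-155, had 4 of 9 values above 0 and a median of -0.02. miR-146b-5p stood at 5823, 5750 and 5772 CPM at 9 months, against 4859, 5247 and 4563 CPM at 3 months (log2 fold change 0.24, SE 0.09, adjusted p = 0.38; 0.16 without WT 3-month replicate 3). It makes up most of the list's sum, 6484 to 6821 CPM at 9 months against 5649 to 5982 CPM at 3 months, while miR-146b-3p had a value of -0.55 (SE 0.22, adjusted p = 0.443). The arms of miR-142a, the defining immune marker, had values of 0.05 (miR-142a-5p, SE 0.13) and -0.18 (miR-142a-3p, SE 0.22), and both rose in APP/PS1, by 0.64 (adjusted p = 0.00376) and 0.80 (adjusted p = 0.022). Their WT minus APP/PS1 differences did not pass (adjusted p = 0.201 and 0.201). The erythrocyte list (miR-144, miR-451a and miR-486) had 0 of 7 at an unadjusted p under 0.05, a median of -0.05, and sums of 1055 to 1273 CPM at 9 months against 1235 to 1332 CPM at 3 months, with the smallest p for miR-486a-3p (0.40, SE 0.42, adjusted p = 0.867).

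In the other lists the numbers at an unadjusted p under 0.05, against 9.47% of all tested, were 0 of 4 for endothelium and vascular smooth muscle (median 0.03), where miR-143-3p had the smallest p (0.37, SE 0.23, adjusted p = 0.767). They were 0 of 4 for choroid plexus and ependyma (median 0.08, miR-204-5p at 0.34, SE 0.26) and 0 of 6 for striated muscle and liver (median 0.15, miR-133b-3p at 0.30, SE 0.22). For let-7, regulators of developmental timing, they were 0 of 19 (median 0.02, let-7e-5p at 0.13, SE 0.08), and for the Hox cluster 0 of 2 (median -0.28, miR-10b-5p at -0.32, SE 0.37). For hypothalamus and pituitary 1 of 4 (25%) was lower, miR-7b-3p, with 4.22, 2.95 and 4.06 CPM at 9 months against 4.97, 9.04 and 6.10 CPM at 3 months (log2 fold change -0.86, SE 0.30, adjusted p = 0.3), while the abundant miR-7a-5p, at 7920, 8458 and 7763 CPM at 9 months against 6132, 3137 and 7041 CPM at 3 months, had a value of 0.57 (SE 0.36, adjusted p = 0.767) and passed when no filter was applied (adjusted p = 0.00704). For miRNAs described with brain age, where 22.2% lay at an unadjusted p under 0.05, 1 of 9 was higher, miR-29b-3p, and 1 lower, miR-22-3p (-0.31, SE 0.13, adjusted p = 0.5), while miR-34a-5p was at -0.14 (SE 0.38). The list of miR-200 and miR-183 miRNAs, markers of olfactory and sensory epithelia, had 12 of 16 names at 0 counts and 0 testable. Where 2 arms of 1 precursor were tested, the signs matched in 69 of 123 pairs.

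The same ages were then read in APP/PS1 mice, which share no library with the WT comparison. There 31 names passed (7.16%), 22 higher (5.08%) and 9 lower (2.08%) at 9 months. At an unadjusted p under 0.05 lay 85 (19.6%), of which 12.2% of all tested were higher and 7.39% lower, and the libraries of 117 did not overlap (27%). The count of 31 became 16 without APP/PS1 3-month replicate 2, and 20 without either APP/PS1 3-month replicate 3 or APP/PS1 9-month replicate 2. All 10 miRNAs described above had the same sign in APP/PS1 as in WT, as had 36 of the 41 at an unadjusted p under 0.05 in WT (87.8%) and 284 of all 433 (65.6%). Of the 10, 4 passed in APP/PS1 in the same direction. On the log2 scale, miR-412-5p fell there by 0.74 (SE 0.19, adjusted p = 0.0182), and miR-212-3p fell by 0.48 (SE 0.13, adjusted p = 0.0216). miR-488-3p rose by 0.40 (SE 0.10, adjusted p = 0.0141) and miR-152-3p rose by 0.54 (SE 0.11, adjusted p = 0.00413). For each of these 4 the interval of the difference between the genotypes' changes held 0. In the same order, WT minus APP/PS1 values were -0.06 (95% interval -0.62 to 0.50), 0.03 (-0.34 to 0.41), -0.06 (-0.35 to 0.22) and -0.17 (-0.50 to 0.16). Intervals of this width do not show that the changes were equal.

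Beyond the 10, miR-212-5p (log2 fold change in APP/PS1 -0.59, adjusted p = 0.0206) and miR-29b-3p (0.37, adjusted p = 0.022) passed in APP/PS1, as did miR-203-3p, miR-337-5p and miR-409-5p, which were picked after their values were seen. These 9 are 29% of the 31 that passed in APP/PS1, against 9.47% of all tested at an unadjusted p under 0.05 in WT. miR-203-3p stood at 184, 162 and 207 CPM at 9 months, against 129, 152 and 138 CPM at 3 months in WT (0.40, SE 0.14, adjusted p = 0.3). At an unadjusted p under 0.05 in both genotypes were 15 names, and all 15 had 1 sign in both. They were 36.6% of the 41 in WT, where 19.6% of all tested lay under 0.05 in APP/PS1. Of the 85 in APP/PS1 they were 17.6%, where 9.47% of all tested lay under 0.05 in WT. Over all 433 miRNAs the log2 fold changes of the genotypes had a Pearson r of 0.133 and a Spearman rho of 0.394. This is a description across miRNAs, which are not independent replicates, and the estimates of both genotypes share 1 scaling. They also share 1 estimate of the spread of each miRNA, so that small p in both are not independent of each other.

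**Figure D4:**
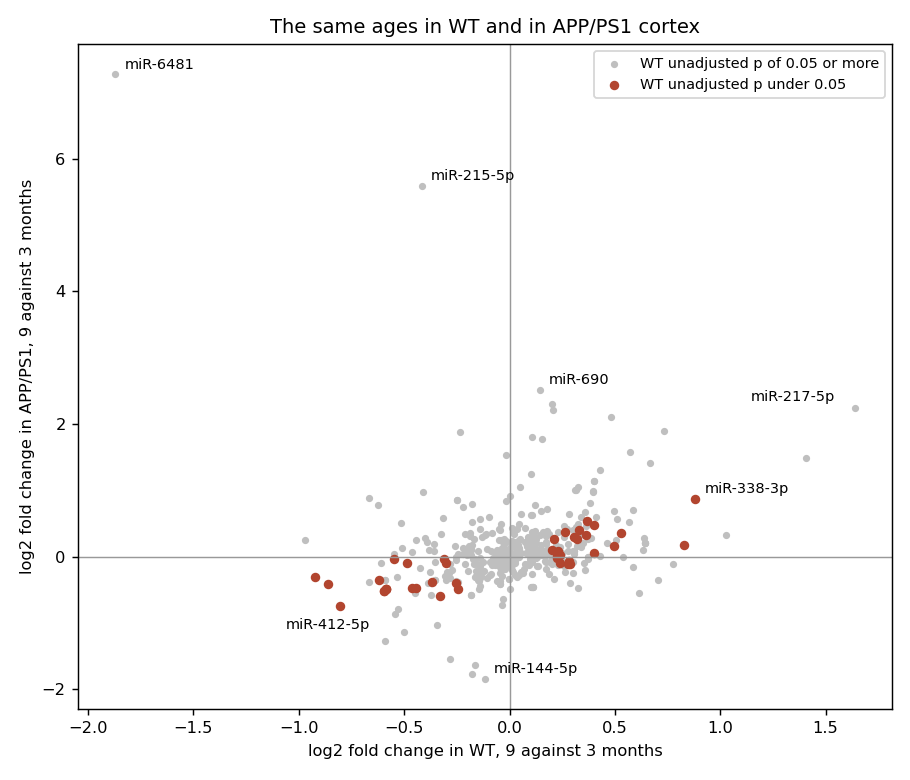
Log2 fold change, 9 against 3 months, in WT cortex (horizontal axis) and in APP/PS1 cortex (vertical axis) for all 433 tested miRNAs. Red points are the 41 at an unadjusted p under 0.05 in WT, of which 36 have the same sign in APP/PS1; miR-6481, far up the vertical axis, had 1 count in all over the 6 WT libraries, so that its WT position has no meaning.

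Whether the change with age differed between the genotypes was tested for every miRNA. No difference passed in edgeR (0 of 433, or 0%), 30 lay at an unadjusted p under 0.05 (6.93%; 2.54% higher and 4.39% lower), and DESeq2 passed 5. The 3 with the smallest p did not pass in WT and passed in APP/PS1. miR-690 stood at 26.4, 28.2 and 13.4 CPM at 9 months, against 19.9, 18.8 and 22.2 CPM at 3 months in WT. In APP/PS1 it stood at 177, 62.5 and 90.99 CPM at 9 months, against 28.9, 20.5 and 8.06 CPM at 3 months (difference WT minus APP/PS1 -2.37, SE 0.59, adjusted p = 0.165). At 6 months, outside these contrasts, miR-690 was higher still, at 678, 638 and 442 CPM in WT and 176, 286 and 373 CPM in APP/PS1. High levels of miR-690 were thus not particular to APP/PS1. miR-199a-5p stood at 193, 194 and 217 CPM at 9 months, against 312, 307 and 183 CPM at 3 months in WT. In APP/PS1 it stood at 304, 630 and 247 CPM at 9 months, against 236, 184 and 183 CPM at 3 months (difference -1.38, SE 0.37, adjusted p = 0.165). APP/PS1 9-month replicate 2 was far above the others, and without it the difference was -0.89 (adjusted p = 0.265).

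The erythrocyte miRNA miR-144-5p stood at 17.7, 21.2 and 17.5 CPM at 9 months, against 19.0, 27.5 and 14.4 CPM at 3 months in WT, so that the WT ages overlapped. In APP/PS1 it stood at 3.93, 5.95 and 5.72 CPM at 9 months, against 25.9, 18.7 and 11.5 CPM at 3 months (difference 1.72, SE 0.46, adjusted p = 0.165). All 3 differences passed with DESeq2, miR-690 at an adjusted p of 0.0122 and miR-199a-5p and miR-144-5p at 0.0273, and all 3 passed when no filter was applied. Without APP/PS1 9-month replicate 3 the number of differences that passed was 8, among them miR-690 and miR-199a-5p but not miR-144-5p. Of the 10 miRNAs, miR-101b-3p (WT minus APP/PS1 0.33, 95% interval 0.02 to 0.64, adjusted p = 0.704) and miR-598-3p (0.35, 0.02 to 0.68, adjusted p = 0.704) had the intervals furthest above 0, with APP/PS1 log2 fold changes of 0.16 and 0.05.

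The WT levels at the other ages are given as description, since they share the libraries of 3 and 9 months. For 7 of the 10 miRNAs the 6-month mean lay between those of 3 and 9 months, and for 8 the step from 1 to 3 months had the direction of the later one. miR-101b-3p averaged 950, 1145, 1354 and 1616 CPM at 1, 3, 6 and 9 months, and miR-152-3p 506, 527, 601 and 680 CPM. miR-338-3p averaged 2.15, 3.76, 6.12 and 6.90 CPM over the same ages, and miR-17-5p 159, 147, 115 and 105 CPM. The means of these 4 keep 1 direction at every step, as do those of miR-598-3p at 1075, 1169, 1530 and 1545 CPM. Some steps lay within the spread of 3 mice. From 1 to 3 months miR-152-3p went from 506 ± 37 to 527 ± 43 CPM and miR-17-5p from 159 ± 26 to 147 ± 24 CPM (SD). In APP/PS1 the means of miR-101b-3p and miR-338-3p also rose at each age. Those of miR-152-3p, miR-17-5p and miR-598-3p did not keep 1 direction there. miR-412-5p averaged 252, 73.2, 36.5 and 41.9 CPM, so that most of its decrease lay before 3 months. miR-212-3p averaged 535, 577, 513 and 424 CPM, with its highest mean at 3 months, and miR-488-3p 1792, 1363, 1540 and 1715 CPM, with its lowest there. miR-100-5p averaged 21025, 24266, 16161 and 30274 CPM, so that its 6-month mean was the lowest of the 4 ages.

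**Figure D5:**
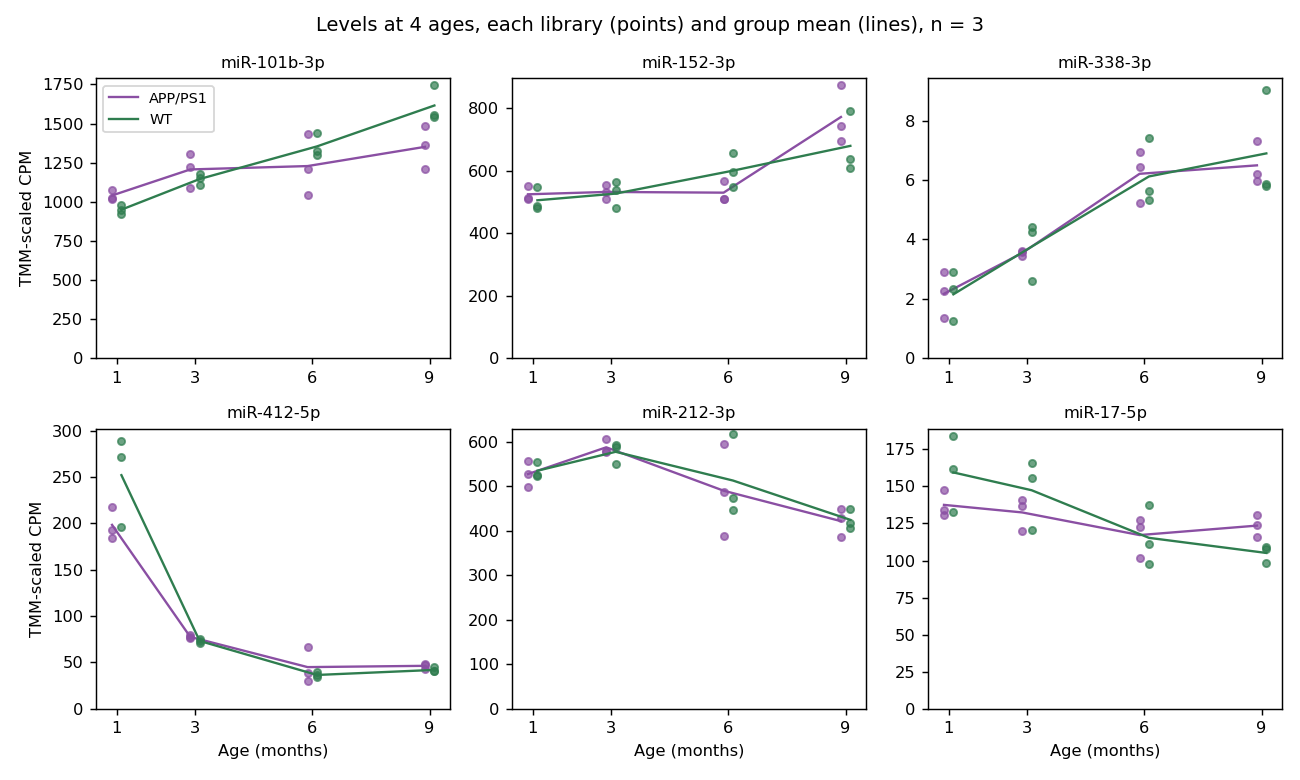
TMM-scaled CPM (vertical axes, from 0) of 6 of the 10 miRNAs at 1, 3, 6 and 9 months (horizontal axes) in APP/PS1 (purple) and WT (green). Points are libraries and lines join the means of 3 mice; WT means of miR-101b-3p, miR-152-3p and miR-338-3p increase at each age, and miR-412-5p is highest at 1 month.

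The log2 changes of largest size belonged to rarely counted names, and the 3 largest positive ones depended on 1 library. miR-217-5p stood at 5.27, 18.6 and 5.87 CPM at 9 months, against 0.828, 2.21 and 6.32 CPM at 3 months (1.64, SE 0.90, adjusted p = 0.675), and passed when no filter was applied (adjusted p = 0.00208). Its neighbour on chromosome 11, miR-216a-5p (Mir216a at 28757012 to 28757083, Mir217 at 28763728 to 28763835), stood at 2.37, 15.5 and 3.61 CPM at 9 months, against 2.48, 2.03 and 3.70 CPM at 3 months (1.40, SE 0.86, adjusted p = 0.761). miR-1912-3p, from an intron of the serotonin receptor gene Htr2c, stood at 10.01, 20.5 and 7.07 CPM at 9 months, against 7.45, 2.95 and 8.28 CPM at 3 months (1.03, SE 0.63, adjusted p = 0.761). All 3 were highest in WT 9-month replicate 2. Without that library their log2 fold changes were 0.77, 0.13 and 0.41. miR-1193-5p of Dlk1-Dio3 had the lowest value after miR-6481, at 0.745 ± 0.315 CPM at 9 months and 1.43 ± 0.834 CPM at 3 months (SD, n = 3 each; -0.97, SE 0.55, adjusted p = 0.719). For miR-6481 no fold is given, since it had 0 counts over the 9-month libraries and 1 over those of 3 months.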

How the data were processed

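Brains had been flash frozen per the labels' protocols, and Trizol RNA went into TruSeq small RNA libraries for single-end Illumina sequencing. Reads outside a length window and those of other small RNA classes or repeats had been taken out. The submitters' processing notes name cutadapt 1.14, Trimmomatic 0.36 and edgeR. Neither the counting tool, nor how reads with several matches were assigned, nor the build is stated there. The authors deposited 1 table of raw counts, with a row per mature miRNA, whose 24 columns were matched to the libraries by their descriptions.

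Names were filtered with filterByExpr (at least 10 counts in enough libraries, 15 in total), scaled by TMM and fitted by quasi-likelihood in edgeR 4.0.16 (R 4.3.3) with 1 mean for each of 8 groups, with 16 residual and 4.64 prior degrees of freedom, after a test on simulated data. The contrasts were 9 against 3 months in WT, the same in APP/PS1, and their difference, each adjusted by Benjamini and Hochberg over all 433 names at 0.05. CPM are TMM-scaled, except sums over lists, which use total counts. Standard errors were derived from the size of the log2 fold change and the root of its F. P-values set each change against the spread between mice, which was estimated over all 24 libraries and not the 6 WT ones alone. A permutation test of 3 against 3 libraries cannot go below 0.1. Alternatives were other scalings and filters, DESeq2 1.42.0, a block by replicate number, fewer groups and leaving out libraries. No set test was run on the 17 lists.

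miRNAs were named by rule: the 10 with the smallest p since fewer passed, their other arms, the smallest p of each list, the 5 most abundant, the 3 smallest p of the difference, and the 3 largest changes each way. Outside it, picked after their values were seen, are miR-132-3p, miR-132-5p, the miR-101 and seed mates, and further list members named beside their counts. Members and lists were chosen with earlier results of these data known.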

Additional observations from a re-analysis of the deposited data

How the results depend on the processing

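The count of 0 miRNAs passing in WT became 3 without a filter on low counts (miR-217-5p, miR-412-5p, miR-7a-5p), 2 with a filter of 10 CPM in 3 libraries, 3 with DESeq2, 1 in the 6 WT libraries alone and 3 without the 6-month libraries. It remained 0 under both other scalings, and was 0 to 0 when each WT library was left out. The APP/PS1 count of 31 ran from 22 to 43 under the other settings and from 16 to 26 when each APP/PS1 library was left out. The 0 differences became 14 without a filter and 5 with DESeq2, and ran from 0 to 8 with each library left out. The cause was not tested. Names at an unadjusted p under 0.05 in WT numbered 29 to 51, and 28 to 38 with a library left out. With a block by replicate number 0 passed in WT, 29 in APP/PS1 and 0 for the difference, and 34 lay at an unadjusted p under 0.05 in WT. Deviations of same-numbered WT libraries of 9 and 3 months correlated at 0.0614, -0.157 and -0.328, and those of differently numbered ones at -0.212 to 0.356. With 3 libraries per age this cannot settle whether same-numbered libraries share more than a number. The counts of values below 0, of unadjusted p and of shared signs were added to these alternatives after seeing the data. The 24 values below 0 of the Sfmbt2 list became 11 under the 10 CPM filter, where fewer members are tested, and 19 to 24 with a library left out. All 4 arms of miR-132 and miR-212 stayed below 0 under every alternative run. The count of 10 signs shared with APP/PS1 was 9 to 10 with a library left out, and could not be had under the 10 CPM filter, which leaves out miR-338-3p. Of the single log2 fold changes those that turned sign lay near 0 or rested on 1 library. With 1 library left out at a time, miR-10b-5p ran from -0.72 to 0.0557, miR-99a-5p from -0.018 to 0.173, miR-26a-5p from -0.0791 to 0.0971, miR-144-5p from -0.344 to 0.124, miR-690 from -0.105 to 0.396 and miR-17-3p from -0.244 to 0.138. miR-26a-5p was also at -0.0076 under the 10 CPM filter. Precision was lowest for the names under 100 CPM, whose median standard error was 0.302, and the parts of depth and of spread between mice in it were not tested.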

Other observations

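The linked miR-216 and miR-217 genes showed single libraries far above their group in both genotypes. In WT 9-month replicate 2 miR-217-5p, miR-216a-5p and miR-216b-5p stood at 18.6, 15.5 and 4.80 CPM, and the other WT libraries of 9 and 3 months had at most 6.32, 3.70 and 2.48 CPM. In APP/PS1 9-month replicate 3 miR-217-5p stood at 39.0 CPM and miR-216a-5p at 20.4 CPM, while the other APP/PS1 libraries of 9 months had 3.41 and 3.47 CPM of miR-217-5p. miR-1912-3p, from Htr2c, had its highest value of the WT series in a 1-month library, at 44.7 CPM in replicate 2.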
